A study of Sus scrofa with 8 samples.

Results

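XIRP1, ANKRD1 and CHRNA1 are muscle genes whose transcripts respond to load, injury or loss of nerve contact, and their levels were followed here in the back muscle of 2 pig breeds. The 3 genes were found by their symbols in GEO's annotation of the array, which gave 1 probe set for XIRP1, 2 for ANKRD1 and 1 for CHRNA1, or 4 of the 24123 probe sets. They were brought together with earlier results of these arrays known, so their levels, their breed differences and their covariation are descriptions of these 8 animals. The Korean native pigs (KNP) were 7 months old and the Yorkshire pigs (YS) 6 months old, with 4 biological replicates per breed and 1 array each, so a breed difference cannot be told apart from one of age. All pigs were kept under the same conditions, per the labels, which name no treatment and no engineered allele. RNA came from longissimus dorsi, a long back muscle, and was read as intensity on one-colour Affymetrix porcine arrays to find genes that differ between the breeds. In such bulk samples fewer cells of a type and less RNA per cell cannot be told apart.

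XIRP1 encodes a Xin protein, which binds and bundles actin through short repeats and gathers at sites of damage, remodelling and force transfer in striated muscle. ANKRD1 encodes an ankyrin repeat protein, also called CARP, that binds titin in the spring region of the sarcomere and can also act in the nucleus. Its transcript is known to rise with stretch and injury of muscle. CHRNA1 encodes the alpha subunit of the muscle acetylcholine receptor, which receives the signal of the motor nerve. In innervated fibres its transcription is held to the nuclei under the synapse, and it spreads along the fibre after loss of the nerve.

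The median signal per array lay between 135.8 and 185.3. Replicates 1 and 3 of both breeds had bright hybridisation controls, at 13.42 to 13.70 log2 units, and replicates 2 and 4 dim ones, at 12.50 to 12.81. The 3' over 5' signal of housekeeping transcripts was 3.33 log2 units in Korean native pig 1 and 3.03 in Yorkshire 3, against 0.87 to 1.73 on the other 6 arrays. Over all arrays together, the 95th percentile of the 23 negative control probe sets was a signal of 91.5. This is called the pooled limit, and lower values are treated here as close to background. On single arrays the same percentile ran from 47.7 on Korean native pig 4 to 116.7 on Yorkshire 3, and was 56.4 on Yorkshire 2. Changes are log2(signal + 32) in Korean native pigs minus that in Yorkshire pigs, a scale that understates the change of dim probe sets. They were fitted with limma over all 14399 probe sets that passed the filter on dim signals, which all 4 probe sets of the 3 genes passed.

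XIRP1 varied more between animals than nearly any other transcript measured. Its signal was 1611, 1328, 6790 and 7547 in Korean native pigs 1 to 4, against 16261, 1191, 9164 and 35547 in Yorkshire pigs 1 to 4. The highest array, Yorkshire 4, and the lowest, Yorkshire 2, belonged to the same breed, and the breeds overlapped. The signal differed 29.9-fold between these arrays, and 5.68-fold between the highest and lowest Korean native pig. The SD within breeds was 1.74 log2 units, the rank 10 value among the 14399 probe sets tested. The mean was 4319 ± 3307 over Korean native pigs, against 15541 ± 14690 over Yorkshire pigs (SD, n = 4 each). The log2 change was -1.45 (SE 0.89, 95% interval -3.39 to 0.48), or 2.74-fold lower in Korean native pigs, and did not pass (limma adjusted p = 0.999). It was -2.41 without Yorkshire 2 and -0.79 without Yorkshire 4. Within the arrays of bright controls, 2 per breed, it was -1.87, and within those of dim controls -1.04.

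**Figure D1:**
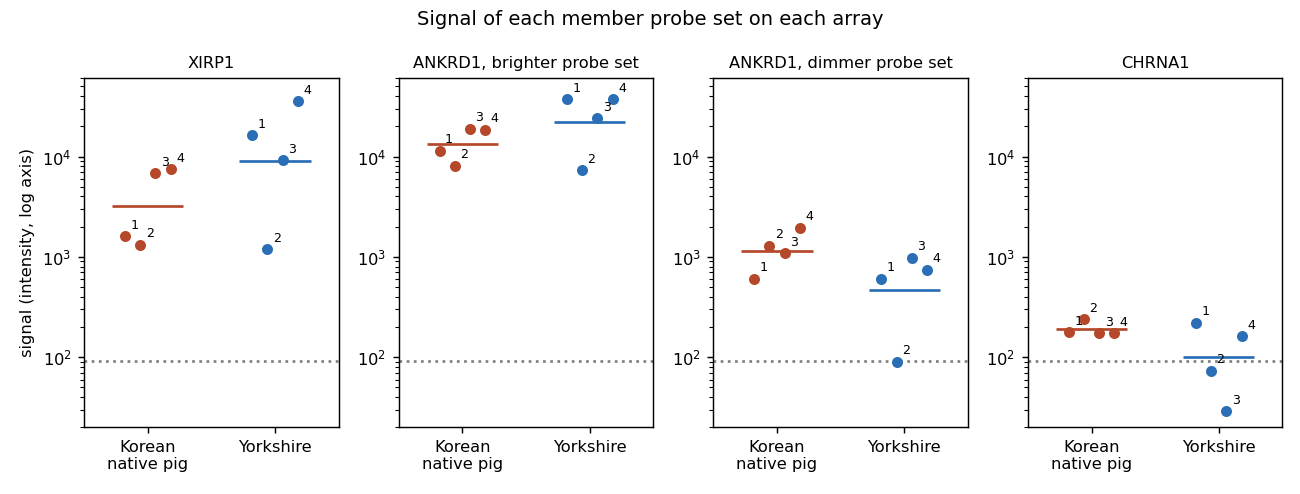
Signal (intensity, log axis) of the 4 probe sets of XIRP1, ANKRD1 and CHRNA1 on each array, with Korean native pigs in red on the left and Yorkshire pigs in blue on the right. Numbers are replicates, bars are the breed means taken on the log2(signal + 32) scale, and the dotted line is the 95th percentile of the negative controls, 91.5; in every panel the breeds overlap and the Yorkshire arrays spread more widely.

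The brighter ANKRD1 probe set repeated the order of XIRP1 in a narrower range. It had signals of 11432, 8127, 18938 and 18522 in Korean native pigs 1 to 4, against 37104, 7323, 24133 and 37412 in Yorkshire pigs 1 to 4. Again Yorkshire 2 was lowest and Yorkshire 4 highest, with Yorkshire 1 close to it. The highest signal was 5.11-fold the lowest, and the SD within breeds was 0.89 log2 units. The mean was 14255 ± 5343 over Korean native pigs, against 26493 ± 14199 over Yorkshire pigs (SD, n = 4 each). The log2 change was -0.73 (SE 0.47, 95% interval -1.75 to 0.29; limma adjusted p = 0.999). It was -1.26 without Yorkshire 2 and -0.48 without either Yorkshire 1 or Yorkshire 4. The arrays of bright controls alone gave -1.02 and those of dim controls -0.43.

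The dimmer ANKRD1 probe set gave a change of the opposite sign. Its signals were 607.4, 1295, 1087 and 1953 in Korean native pigs 1 to 4, against 608.3, 90.5, 985.8 and 748.5 in Yorkshire pigs 1 to 4. Only Yorkshire 2 was not above background, and the other 3 Yorkshire arrays lay within the range of the Korean native pigs. The log2 change was 1.23 (SE 0.57, 95% interval -0.02 to 2.48; limma adjusted p = 0.999), or 0.55 without Yorkshire 2. The bright arrays alone gave 0.07, and the dim arrays, which include Yorkshire 2, gave 2.39. A direction for ANKRD1 between the breeds therefore depends on which probe set is read.

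The unequal behaviour of the 2 ANKRD1 probe sets can be followed on single arrays. The brighter exceeded the dimmer by 4.16, 2.62, 4.08 and 3.22 log2 units in Korean native pigs 1 to 4, against 5.86, 5.91, 4.57 and 5.58 in Yorkshire pigs 1 to 4. The mean was 3.52 ± 0.74 over Korean native pigs, against 5.48 ± 0.62 over Yorkshire pigs (SD, n = 4 each), a difference of -1.96. The value of 5.91 on Yorkshire 2 rests on a dimmer signal of 90.5, under the pooled limit of 91.5 but above that array's own 56.4. Without that array the difference was -1.81. All 4 Korean native pig values lay below all 4 Yorkshire values. Of the 1277 genes with at least 2 tested probe sets, 20 (1.57%) showed no overlap in the same measure in either direction. This measure was chosen after its values were seen and is given without a test. The bright arrays alone gave -1.09 and the dim ones -2.82. The files do not say which parts of the transcript the probe sets cover.

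CHRNA1 was dim, and in Korean native pigs it was steady and above the pooled limit of 91.5. Its signals were 179.6, 239.4, 172.5 and 173.0 in Korean native pigs 1 to 4, against 222.0, 73.8, 28.9 and 162.5 in Yorkshire pigs 1 to 4. Yorkshire 2 and 3 were under the pooled limit of 91.5, whereas Yorkshire 1 and 4 lay near the Korean native pigs, so the breeds overlapped. Yorkshire 2 was above its own array's 56.4, and Yorkshire 3 was below its own 116.7. The mean was 191.1 ± 32.3 over Korean native pigs, against 121.8 ± 86.9 over Yorkshire pigs (SD, n = 4 each). The log2 change was 0.73 (SE 0.42, 95% interval -0.19 to 1.65; limma adjusted p = 0.999). It was 0.35 without Yorkshire 3, and 0.37 without both arrays of high 3' over 5' signal. The bright arrays alone gave 0.74 and the dim ones 0.72.

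By limma 0 of the 4 probe sets passed an adjusted p of 0.05, as did 0 of 14399 probe sets over the whole array (0%). At an unadjusted p under 0.05 there were 0 of the 4, against 570 (3.96%) of all probe sets tested. None of the 4 separated the breeds without overlap, which 369 (2.56%) of all probe sets tested did. Signs also differed among the genes, with XIRP1 and the brighter ANKRD1 probe set lower in Korean native pigs and CHRNA1 and the dimmer ANKRD1 probe set higher, none passing. Intervals from 4 arrays per breed were wide: that of XIRP1 spans log2 changes of -3.39 to 0.48.

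XIRP1 and the brighter ANKRD1 probe set went up and down together over the 8 animals. Pearson's r of their log2(signal + 32) was 0.97 and Spearman's rho 0.98, and only Korean native pigs 3 and 4 changed places between the orders of the 2 genes. On each log2 unit of XIRP1, ANKRD1 differed by 0.49. With each breed's mean taken off, r was 0.97, so the relation was also present among animals of one breed. Without Korean native pig 2 and Yorkshire 2, the arrays farthest from the median of XIRP1, r was 0.96 over 6 arrays, and without the 2 arrays of high 3' over 5' signal it was 0.98. The bright and the dim sets hold 4 arrays each, too few for a correlation, but within each set the 2 genes ranked the arrays in the same order. The genes were put together with their values known, and the arrays share 1 scaling, so these figures carry no p.

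**Figure D2:**
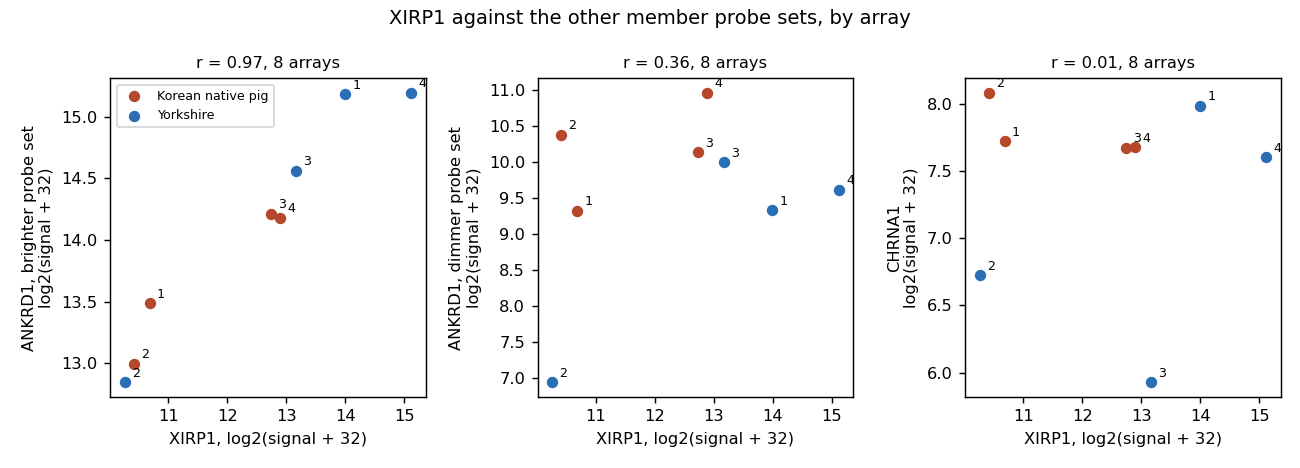
Log2(signal + 32) of XIRP1 (horizontal axes) against the brighter ANKRD1 probe set, the dimmer ANKRD1 probe set and CHRNA1 (vertical axes), 1 point per array, numbered by replicate, with Korean native pigs in red and Yorkshire pigs in blue. The points of the first panel follow a line from Yorkshire 2 to Yorkshire 4 (r = 0.97), and those of the other panels do not (r = 0.36 and 0.01).

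CHRNA1 showed no such relation with either gene. Its r was 0.01 with XIRP1 (rho -0.14) and 0.03 with ANKRD1 (rho -0.17). With each breed's mean taken off, these were 0.32 and 0.34. Without the 2 arrays of high 3' over 5' signal they were 0.34 and 0.41. Without Yorkshire 2 and 3, the arrays farthest from the median of CHRNA1, they were -0.43 and -0.35. Leaving out any one of Yorkshire 1, 2 and 4 turned both below 0, to -0.22 and -0.24 without Yorkshire 2, and leaving out Yorkshire 3 gave 0.28 and 0.37, so neither has a settled sign. The dimmer ANKRD1 probe set had an r of 0.36 with XIRP1 (rho 0.14), 0.36 with the brighter ANKRD1 probe set (rho 0.10) and 0.33 with CHRNA1 (rho 0.24). With breed means taken off, its r with XIRP1 was 0.79 and with the brighter probe set 0.78. Without Korean native pig 2 and Yorkshire 2, and with breed means left in, its r was 0.00 (-0.00084) with XIRP1 and -0.20 with the brighter probe set, so the pooled relations rest on those arrays.

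Of the 5330 other genes tested, each read from its brightest probe set, ANKRD1 had the highest r with XIRP1, and XIRP1 the highest with ANKRD1. An r above 0.9 was reached by 9 genes with XIRP1, by 12 with ANKRD1 and by 7 with CHRNA1. The genes named next are the 4 of highest r for each, chosen from all of these on 8 arrays, so a high r is what chose them. NRAP, which encodes an actin-anchoring protein of muscle fibre ends and growing myofibrils, ranked all 8 arrays exactly as XIRP1 did (r = 0.95, rho = 1). NRAP had signals of 6936, 6630, 7722 and 8218 in Korean native pigs 1 to 4, against 11274, 5475, 9528 and 15628 in Yorkshire pigs 1 to 4. Its highest signal was 2.85-fold the lowest, a much narrower range than that of XIRP1.

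TNFRSF12A, the receptor for the cytokine TWEAK, is induced in injured muscle. It had an r of 0.95 with XIRP1 and 0.93 with ANKRD1, and a second TNFRSF12A probe set had 0.91 and 0.87. Its signals were 800.6, 906.1, 1198 and 2085 in Korean native pigs 1 to 4, against 3358, 796.6, 1771 and 3370 in Yorkshire pigs 1 to 4. Yorkshire 2 was again the lowest array and Yorkshire 4 the highest. ATF3, a transcription factor induced by many kinds of cell stress, was the gene most like ANKRD1 after XIRP1 (r = 0.95, rho = 0.95).

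ATF3 also shared the wide range of XIRP1. Its signals were 679.1, 661.6, 3006 and 2089 in Korean native pigs 1 to 4, against 7814, 458.7, 2170 and 3739 in Yorkshire pigs 1 to 4. The highest was 17.0-fold the lowest, with Yorkshire 1 rather than Yorkshire 4 on top. The remaining genes were OCRL, an inositol phosphatase (r = 0.94 with XIRP1), SLC35C2 (0.94 with XIRP1) and LONRF3 (0.94 with ANKRD1). A second tested OCRL probe set did not follow XIRP1 (r = -0.27). SLC35C2 was under the pooled limit of 91.5 on Korean native pigs 1 and 2 and Yorkshire 2. Log2 changes between the breeds ran from -0.83 for ATF3 to -0.29 for OCRL among these 6 genes, all with limma adjusted p = 0.999. ATF3 was at -1.59 without Yorkshire 2 and -0.26 without Yorkshire 1, and OCRL at -0.03 without Yorkshire 4.

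The genes most like CHRNA1 were USP2, a deubiquitinating enzyme (r = 0.95), the tyrosine kinase JAK1 (0.93), TADA3, a subunit of histone acetylase complexes (0.92), and FAM46C, a poly(A) polymerase (0.91). USP2 had signals of 3563, 4226, 3968 and 3227 in Korean native pigs 1 to 4, against 3914, 2548, 2255 and 3484 in Yorkshire pigs 1 to 4. All 4 genes were lowest on Yorkshire 2 and 3, the arrays on which CHRNA1 was lowest. Without those arrays r fell to 0.73 for USP2, 0.67 for JAK1, 0.42 for TADA3 and 0.45 for FAM46C over 6 arrays. The likeness to CHRNA1 thus rests in good part on a pair of arrays where CHRNA1 was under the pooled limit of 91.5. On Yorkshire 2 CHRNA1 was still above that array's own 56.4.

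**Figure D3:**
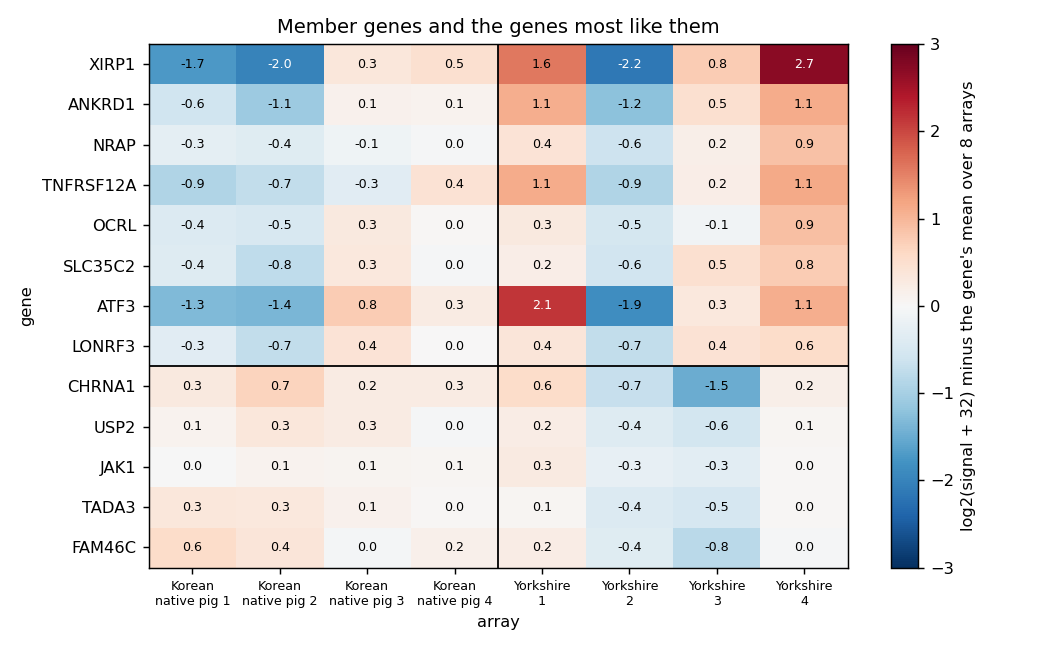
Log2(signal + 32) minus the gene's mean over the 8 arrays for XIRP1, ANKRD1 (brighter probe set) and the genes most like them (upper block), and for CHRNA1 and the genes most like it (lower block), with 1 column per array and Korean native pigs on the left. The upper block is low on Korean native pigs 1 and 2 and Yorkshire 2 and mostly high on Yorkshire 1 and 4, and the lower block is low on Yorkshire 2 and 3.

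Genes that answer stretch and load in the sarcomere did not pass the test between the breeds. Of 16 tested genes on this list, XIRP1 and ANKRD1 included, 0 passed in either direction, 14 were below 0 and 2 above, with a median log2 change of -0.29. Over all 5331 genes tested the median was 0.00 (-0.00269), with 2688 below 0, and the 11 skeletal fibre markers were all below 0 too, with a median of -0.32. The list median stayed between -0.38 and -0.20 under every alternative run. ABRA, an actin-binding activator of SRF signalling, had the smallest p of the list, with a log2 change of -0.99. Its signals were 3699, 4220, 3762 and 9250 in Korean native pigs 1 to 4, against 13883, 6421, 8652 and 11166 in Yorkshire pigs 1 to 4. Korean native pig 4 stood above the other Korean native pigs and inside the Yorkshire range. HSPB7, a small heat shock protein of muscle, was at -0.70, and SMPX, a small protein of stretched muscle, at -0.44 (limma adjusted p = 0.999 for each).

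These genes covaried with XIRP1 to different degrees. Of the 15 other genes on the list 7 (46.7%), ANKRD1 and NRAP among them, had an r above 0.5 with XIRP1, against 458 (8.59%) of all 5330 genes, and the median r was 0.49 against 0.00 (-0.0045). With ANKRD1, 6 of the 15 other genes (40%), XIRP1 among them, had an r above 0.5, against 9.31% of all genes. Other lists also held such genes: 4 of the 11 skeletal fibre markers (36.4%) with ANKRD1 and 2 (18.2%) with XIRP1. Of 5 regeneration genes, 2 (40%) had an r above 0.5 with XIRP1 and 0 with ANKRD1. DES, at 0.54 with XIRP1, is on both the regeneration and the stretch list. CRYAB, the small heat shock protein alpha B-crystallin, had an r of 0.78 with XIRP1 and 0.87 with ANKRD1, and ABRA 0.73 and 0.72. XIRP2, the paralogue of XIRP1, did not follow it (r = 0.10). XIRP2 had signals between 33851 and 52676 in Korean native pigs, against between 38874 and 57544 in Yorkshire pigs, a log2 change of -0.24. CRYAB, DES and XIRP2 are named here after their values were seen. The stretch list was drawn up with earlier results of these arrays known. XIRP1 and ANKRD1, each counted in the share of the other, were put together with their values known. These shares are therefore descriptions. With CHRNA1, 1 of the 16 genes reached an r above 0.5, and the median was -0.18.

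Neighbouring pathways gave few measured genes. Of 5 membrane repair genes 4 were below 0 (median -0.56), with the annexins ANXA2 at -0.68 and ANXA5 at -0.44 and the annexin partner S100A10 at -0.63. Of 11 targets and partners of YAP and SRF, ANKRD1 included, 7 were below 0 (median -0.18), with the adhesion protein gene VCL at -0.31 and TPM4, a tropomyosin, at -0.28. Within the dim arrays the medians of the 2 lists were -0.20 and 0.07. None of these genes passed limma's adjusted threshold. The membrane repair genes reached an r of at most 0.48 with XIRP1.

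The genes listed with CHRNA1 did not move with it. Of the 20 listed genes of the acetylcholine receptor and the neuromuscular junction, 4 were tested, and the other receptor subunits of muscle were among those without a probe set of 1 symbol. Apart from CHRNA1 these were ETV5, a transcription factor of synaptic nuclei, at 0.03, PRKAR1A, a regulatory subunit of protein kinase A, at -0.06 (0.02 with arrays centred on their median), and the synaptic laminin gene LAMB2 at 0.02. LAMB2 lies outside the rule for named genes. Their r with CHRNA1 lay between -0.46 and 0.07. Of 5 tested genes that respond to denervation, CHRNA1 itself included, 3 were above 0 (median 0.14). CHRNA1 was among these, as was FBXO32, a ubiquitin ligase of muscle wasting, at 1.06. SLN, an inhibitor of the calcium pump, was at -0.17 (0.07 with quantile normalisation). The denervation median had no settled sign: it was -0.02 without Yorkshire 2, 0.37 without Korean native pig 2 and -0.17 with the dimmest 60% of probe sets left out. FBXO32 signals were 4402, 4052, 9371 and 6353 in Korean native pigs 1 to 4, against 1376, 2236, 5099 and 3452 in Yorkshire pigs 1 to 4, with overlap through Yorkshire 3. Among 5 regeneration genes 4 were below 0 (median -0.23), with the myogenic factors MYF5 at -0.34 and MYOD1 at -0.37 and the filament gene VIM at -0.23. With 1 array left out MYF5 lay between -0.50 and -0.17, and MYOD1 was at -0.61 without Yorkshire 1, and at 0.00 (0.00358) when Korean native pig 4 was left out. The dim arrays alone gave a regeneration median of 0.04. Again no gene passed by limma.

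**Figure D4:**
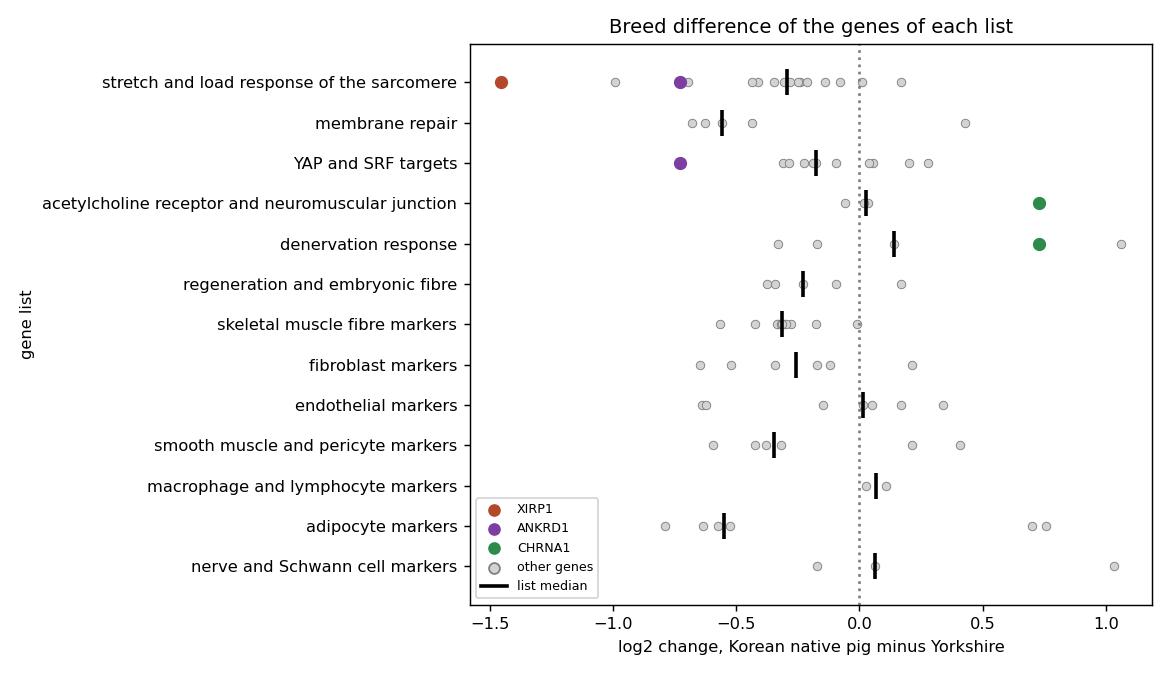
Log2 change, Korean native pig minus Yorkshire, of every tested gene of each list (points), with the list median as a black bar and XIRP1, ANKRD1 (brighter probe set) and CHRNA1 in colour. XIRP1 at -1.45 lies farthest from 0 of all the genes shown, and no gene passed an adjusted p of 0.05.

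Markers of the tissue and of its other cells were read beside these values. The 11 skeletal fibre markers were bright on every array, with a summed signal of 476289 to 752326 in Korean native pigs, against 645846 to 978897 in Yorkshire pigs. All 11 were below 0 (median -0.32), among them CKM, the muscle creatine kinase gene, at -0.33, the fast troponin C gene TNNC2 at -0.42 and the light chain gene MYL1 at -0.33. These values depended on the scaling. With quantile normalisation the median was -0.03, MYL1 was at -0.01 and CKM at 0.00 (0.00307). With arrays centred on their median the list median was -0.24, with CKM at -0.25 and MYL1 at -0.26. The bright arrays alone gave a median of 0.02 and the dim ones -0.66. Their median r was 0.34 with XIRP1, 0.40 with ANKRD1 and -0.34 with CHRNA1. Their part in the values of the 3 genes was not tested.

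Summed fibroblast markers ran from 10088 to 17341 in Korean native pigs, against from 13116 to 23173 in Yorkshire pigs, and 5 of 6 were below 0 (median -0.26), with LUM at -0.65 (-0.08 without Korean native pig 3), FBN1 at -0.52 and DCN at -0.34. The sums of the 7 endothelial markers were 4111 to 4907 in Korean native pigs, against 4143 to 5979 in Yorkshire pigs, and 4 of 7 were above 0 (median 0.02), with ENG at -0.64, EGFL7 at -0.62 and CDH5 at 0.17. For the 6 markers of smooth muscle and pericytes the sums were 8812 to 12869 in Korean native pigs, against 10070 to 13721 in Yorkshire pigs, and 4 of 6 were below 0 (median -0.35), with ACTA2 at -0.43, TAGLN at -0.38 and SMTN at 0.41. The 6 adipocyte markers summed to 3657 to 10083 in Korean native pigs, against 4473 to 8622 in Yorkshire pigs, and 4 of 6 were below 0 (median -0.55), with CIDEA at -0.79, CFD at 0.70 and FABP4 at -0.52. The breeds overlapped in each of these sums. The adipocyte median was 0.09 with the dimmest 60% of probe sets left out and -0.03 on the bright arrays alone. CIDEA was under the pooled limit in Korean native pig 2 (34.6), as were LIPE (7.6) and LEP (22.6). LIPE was also under it in Yorkshire 1 and 4, LEP in Korean native pig 4 and Yorkshire 2, and ADIPOQ in Korean native pig 1. FABP4 and CFD were above it on every array. ADIPOQ, LEP and LIPE lie outside the rule for named genes. With XIRP1, r ran from -0.91 to 0.49 among the smooth muscle and pericyte markers and from -0.78 to 0.55 among the endothelial ones. With ANKRD1 these ranges were -0.87 to 0.40 and -0.69 to 0.56. Among fibroblast markers r with XIRP1 ran from -0.50 to 0.64, and among adipocyte markers from -0.23 to 0.73. The part of these markers in the values of the 3 genes was not tested. Of the immune markers only CD163, at 0.03, and CD3E, at 0.11, were tested. The nerve and Schwann cell markers tested were MBP at 1.03, S100B at -0.17 and GAP43 at 0.06. MBP signals were 552.9, 548.2, 1159 and 1187 in Korean native pigs 1 to 4, against 461.4, 457.4, 189.5 and 491.4 in Yorkshire pigs 1 to 4, without overlap, as in 2.56% of all probe sets tested. MBP was lowest on Yorkshire 3, as CHRNA1 was, and its part in the values of CHRNA1 was not tested.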

How the data were processed

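Total RNA of 8 muscle samples was measured on 1 array each. The authors deposited 1 linear intensity per probe set and array. The submitters' processing notes name GCOS 1.3. No summarisation method, scaling target or genome build is given in the sources used here. Trimmed by 2% at either end, each array's mean was 500.1 to 500.2, so values are relative to the other probe sets of an array. Gene names came from GEO's platform annotation (10099 probe sets with 1 symbol, 198 with several, 13826 unnamed here), and all 3 genes were found by gene number in the Sscrofa11.1 gene table.

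Values were taken to log2(signal + 32). The 124 control probe sets and the dimmest 40% of the others by mean log2 value (a signal near 98.6) were left out. limma 3.58.1 in R 4.3.3 (lmFit, eBayes with an intensity trend) was fitted to all 8 arrays, with Benjamini-Hochberg adjustment over all probe sets tested and a threshold of 0.05, and was tested on simulated data. The median SE of a log2 change was 0.28, and the number of arrays limits the precision. A gene was read from its brightest probe set.

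The members and lists were chosen with earlier results of these data known. Named were all probe sets of the members, the genes of a list that passed or the 3 of smallest p, and the 4 genes of highest r with each member. Lists are described by counts and medians. Alternatives were other pseudocounts, filters and normalisations, blocks, arrays left out and the dimmer ANKRD1 probe set.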

Additional observations from a re-analysis of the deposited data

Results flagged for a closer look

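In groups of 4 arrays, a value was singled out where its gap to the nearest other value, as a share of the group's whole range on the log2 scale, exceeded Dixon's critical value at the 95% level. This held in 6 of the 98 groups of 4 examined, and chance alone gives about 1 in 20. CHRNA1 in Korean native pig 2 had a signal of 239.4, above the 172.5 to 179.6 of the other Korean native pigs (gap share 0.880). LONRF3, one of the genes most like ANKRD1, was at 285.5 in Yorkshire 2, below 641.9 to 744.9 (0.841). ABRA was at 9250 in Korean native pig 4, above 3699 to 4220 (0.857). VCL was at 4218 in Korean native pig 1, an array of high 3' over 5' signal, below 5456 to 5672 (0.869). MBP was at 189.5 in Yorkshire 3, the other such array, below 457.4 to 491.4 (0.922). S100B was at 300.4 in Korean native pig 3, below 424.9 to 450.8 (0.852).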

How the results depend on the processing

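XIRP1, CHRNA1 and the brighter ANKRD1 probe set kept the sign of their breed difference under every alternative run and passed under none. Leaving out 1 array gave -2.41 to -0.79 for XIRP1, -1.26 to -0.48 for ANKRD1 and 0.35 to 1.04 for CHRNA1. The reversal came from reading ANKRD1 by its dimmer probe set, at 1.23, where its r with XIRP1 was also 0.36, a setting for r chosen after seeing the data. CHRNA1 gave no value with the dimmest 60% left out, since it was not among the probe sets kept. With the replicate number as a block (replicate block), 1 of 14399 probe sets passed, none of them of these genes (limma adjusted p = 0.992 for each), and the r of XIRP1 and ANKRD1 was 0.996. No label states a pairing by number, and the deviations of same-numbered arrays correlated at -0.04 to 0.31. When each array was compared only with those of the other breed, 4 of 8 correlated best with their own number. Signals under 91.5 limit CHRNA1 on Yorkshire 2 and 3 and the dimmer ANKRD1 probe set on Yorkshire 2. On some arrays they also limit dim named genes such as MYF5 (78.7 in Korean native pig 2) and ENG (71.3 in Korean native pig 4).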

Other observations

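Some genes ran against XIRP1 and ANKRD1 over the 8 arrays, and these were named after their values were seen. CCDC25 had the lowest r with both, at -0.95 with XIRP1 and -0.96 with ANKRD1. Its signals were 1556, 1659, 1261 and 1471 in Korean native pigs 1 to 4, against 1136, 1837, 1253 and 998.8 in Yorkshire pigs 1 to 4. Yorkshire 2, the lowest array for XIRP1, was here the highest, and Yorkshire 4 the lowest. After it came CDYL (-0.93) and PKIG, an inhibitor of protein kinase A (-0.92), for XIRP1, and UCK1, a uridine-cytidine kinase (-0.95), and COX10, an enzyme of haem A synthesis (-0.92), for ANKRD1. With each of XIRP1 and ANKRD1, 6 genes had an r under -0.9, against 9 and 12 above 0.9.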
